A study of Mus musculus with 8 samples.

Results

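The clustered protocadherins were read on Agilent mouse expression arrays through 38 probes for 35 genes, out of 39429 probes on each array. Members were all probes whose RefSeq accession in the scanner files belongs to a gene symbol beginning with Pcdha, Pcdhb or Pcdhg, which gave 9 alpha, 22 beta and 7 gamma probes. The RNA came from dissociated mouse hippocampal neurons that had grown for 10 days, received a lentivirus and been kept for 6 days more. There were 4 arrays labelled Flag-Nr4a1, a FLAG-tagged form of the activity-induced orphan nuclear receptor Nr4a1, and 4 arrays labelled GFP, the control transgene. Both groups thus carried a virus, and the labels name no promoter, strain or animal age. Nothing in them says that the 4 samples of a group came from separate cultures, so the spread behind each p-value may be a technical one. Labels join each Nr4a1 array to a GFP array of the same replicate number by a pair tag, and replicate 4 of both groups is batch 2. Culture RNA was in Cy5 and a commercial mouse reference RNA in Cy3 on every array, without a dye swap. Levels below are log2 ratios of culture over reference RNA, and differences are Nr4a1 minus GFP within the 4 pairs, with limma standard errors (n = 4 arrays per group throughout).

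Clustered protocadherins are cadherin-like membrane proteins whose genes stand in tandem, alpha first, then beta, then gamma. Neurons switch on a few of the many isoforms each, by choosing among promoters that lie before separate variable exons, with the insulator protein CTCF and cohesin joining a promoter to a distant enhancer. The proteins bind like with like between cells, and in mice they serve self-avoidance of dendrites and axons, dendrite branching and synapse formation. Alpha and gamma variable exons, each coding for an extracellular part, are spliced to constant 3' exons that all isoforms of the same cluster share, whereas each beta gene is a single coding exon with no constant part. The C-type isoforms at the 3' end of the alpha and gamma arrays are expressed in more neurons than the alternate ones.

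Those constant exons bear on how far a probe can name an isoform. A probe carries the accession of 1 transcript, but if it lies in a constant exon it reads every isoform of its cluster. The files give no probe position, so which alpha and gamma probes lie in shared exons was not tested. Beta genes share no exon, but they are close relatives, and cross-hybridisation between them was not tested either. The RefSeq table of GRCm38.p6 lists 58 genes of these symbols, and 7 alpha and 16 gamma genes matched no probe.

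In Cy5, 60.9% to 69.2% of the spots of an array stood well above background and 0 reached saturation; precision is limited by there being 4 arrays per group. The Nr4a1 probe read -1.32, -2.49, -1.20 and -2.37 on Nr4a1 arrays 1 to 4, against -2.06, -2.12, -1.90 and -2.49 on GFP arrays 1 to 4. It did not separate the groups (difference 0.30 ± 0.15, limma adjusted p = 0.194), so groups are named by their labels. The 4 GFP arrays share a slide, Nr4a1 replicates 1 to 3 share another and Nr4a1 replicate 4 is on the slide numbered 3, so that each slide held 1 group. Over all probes tested 12.1% were called higher and 11.7% lower in Nr4a1 arrays, and the marker lists stand beside that. Of 14 neuron markers 1 was higher and 2 lower in Nr4a1 arrays, of 9 astrocyte markers 2 and 0, and of 5 fibroblast markers 0 and 2. In the oligodendrocyte list of 9 genes 5 were higher and 2 lower, in the microglia list (5 of 8 tested) 0 and 1, and in the endothelial list (4 of 6 tested) 0 and 0. Summed Cy5 intensity of the oligodendrocyte markers ran from 38311 to 55314 on Nr4a1 arrays, against 18997 to 28212 on GFP arrays. For neuron markers the sum ran from 342125 to 370268 on Nr4a1 arrays, against 377796 to 396821 on GFP arrays. P2ry12 of the microglia list and Cdh5 and Tek of the endothelial list were well above background on 0 arrays. Their part in the differences below was not tested, and fewer cells of a type and less RNA per cell cannot be told apart in such bulk samples.

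Alpha cluster probes were lower in Nr4a1 arrays. Of the 7 alpha probes tested, 5 fell, 0 rose and 2 were not called, and all 7 had a difference below 0 (limma, pair block, Benjamini-Hochberg over 25783 probes at 0.05). Over all probes tested, 11.7% were called lower and 12.1% higher, and 51.4% had a difference below 0. The median alpha difference was -0.40, beside -0.0050 over all probes tested, and the pair medians were -0.60, -0.35, -0.33 and -0.31 for replicates 1 to 4. Single pair values of the 7 probes lay below 0 in 26 of 28 cases, the exceptions being Pcdha4 in replicate 2 and Pcdha11 in replicate 3. These 28 values share the same 8 arrays, and 2 of the probes read Pcdhac2, so they are not independent. The batch as the block, no block, other filters on dim probes and fewer probes per gene left each alpha difference as it was. Those settings could not change a sign. Under the remaining settings no alpha difference changed sign, but all 5 calls were lost with slide as a random block. They were also lost when spots with non-uniform local background were kept in the background correction (median -0.80). Nr4a1 replicate 2 held 37 such spots and background of up to 8509 in Cy5 and 33931 in Cy3. The other arrays held 0 to 9 such spots each and background of up to 89. The part of that array in the lost calls was not tested.

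**Figure D1:**
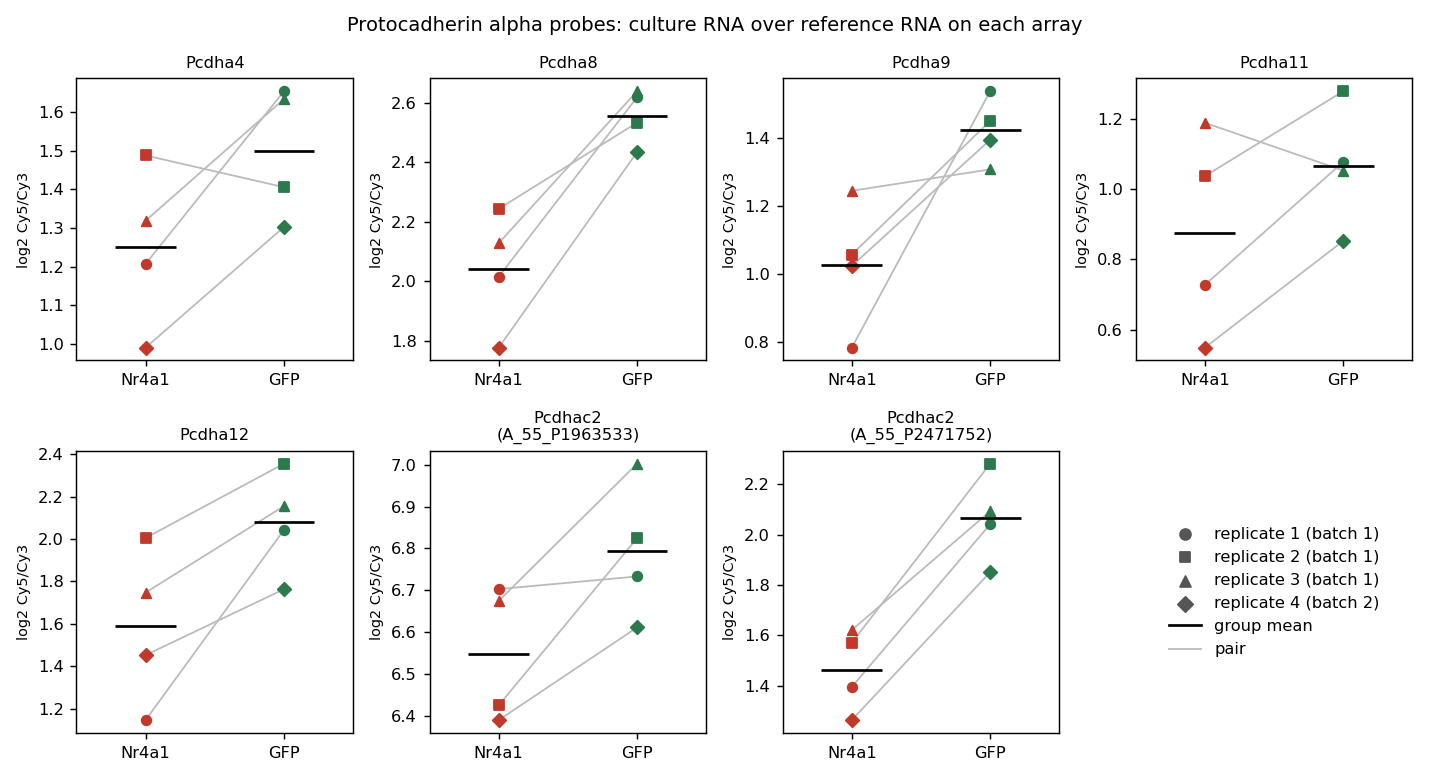
Log2 ratio of culture RNA over reference RNA (y axis) for the 7 tested alpha probes on each Nr4a1 array (red, left) and GFP array (green, right). Symbols mark replicates, grey lines join pairs and black bars are group means. Group means are lower for Nr4a1 in all 7 panels, and the groups do not overlap for Pcdha8, Pcdha9 and the Pcdhac2 probe A_55_P2471752. Over all probes tested, 11.8% were lower in Nr4a1 arrays without overlap.

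With the settings reported, the alpha difference farthest from 0 was in Pcdhac2, a C-type isoform that serotonergic axons of mice need for tiling. Its probe A_55_P2471752 read 1.396, 1.57, 1.62 and 1.26 on Nr4a1 arrays 1 to 4, against 2.04, 2.28, 2.09 and 1.85 on GFP arrays 1 to 4. Every Nr4a1 array lay below every GFP array, as it did for 11.8% of all probes tested. The level was 1.52-fold lower (difference -0.60 ± 0.06, limma adjusted p = 0.000108, lower in 4 of 4 pairs). A second Pcdhac2 probe, A_55_P1963533, read 6.70, 6.42, 6.67 and 6.39 on Nr4a1 arrays, against 6.73, 6.82, 7.002 and 6.61 on GFP arrays. Here the groups overlapped, and the difference was smaller but in the same direction (-0.24 ± 0.07, limma adjusted p = 0.0323). Its call was lost in 10 of the other settings, among them those without replicate 2, 3 or 4 (limma adjusted p 0.155, 0.0994 and 0.0795, within 0.0172 to 1.00 over all of them). Raw Cy5 intensities of that probe ran from 13580 to 25628, and those of A_55_P2471752 from 115 to 358. The C-type gene Pcdhac1 was well above background on 0 of 4 Nr4a1 and 1 of 4 GFP arrays and was not tested.

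Among the alternate alpha isoforms, which single neurons express in differing combinations, Pcdha8, Pcdha9 and Pcdha12 fell. The Pcdha8 probe A_55_P2106584 read 2.02, 2.24, 2.13 and 1.78 on Nr4a1 arrays, against 2.62, 2.53, 2.64 and 2.43 on GFP arrays. Nr4a1 arrays lay below GFP arrays without overlap, as for 11.8% of all probes tested. The level was 1.43-fold lower (-0.51 ± 0.07, limma adjusted p = 0.000687). In Agilent's own ratio Pcdha8 was the single alpha probe called. The other Pcdha8 probe, A_55_P2106586, was well above background on 0 of 4 Nr4a1 and 3 of 4 GFP arrays. It read 0.33, 0.59, 0.76 and 0.24 on Nr4a1 arrays, against 0.43, 0.76, 0.30 and 0.54 on GFP arrays. These groups overlapped, with Nr4a1 higher in replicate 3, and the probe was not tested.

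Pcdha12 had 1.15, 2.00, 1.75 and 1.45 on Nr4a1 arrays, against 2.04, 2.35, 2.15 and 1.76 on GFP arrays. The groups overlapped, because GFP replicate 4 stood below Nr4a1 replicate 2, but each pair was lower, and the difference was -0.49 ± 0.09 (limma adjusted p = 0.00423). Its size moved with the processing, to -1.49 in Agilent's ratio, where Pcdhac2 A_55_P2471752 had -0.77, and to -0.89 with all spots in the background correction. Without the pair block this call was lost (limma adjusted p = 0.0546, within 0.000426 to 1.00 over the other settings). Pcdha9 read 0.78, 1.06, 1.25 and 1.02 on Nr4a1 arrays, against 1.54, 1.45, 1.31 and 1.395 on GFP arrays. Every Nr4a1 array again lay below every GFP array, as for 11.8% of all probes tested (-0.40 ± 0.10, limma adjusted p = 0.0143). The pair differences of Pcdha9 were uneven, at -0.75, -0.39, -0.06 and -0.37, and the call was lost without replicate 1 (-0.28, limma adjusted p = 0.0569, within 0.00451 to 1.00 over the other settings).

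Pcdha4 and Pcdha11 were not called. Pcdha4 read 1.21, 1.49, 1.32 and 0.99 on Nr4a1 arrays, against 1.65, 1.41, 1.63 and 1.303 on GFP arrays (-0.25 ± 0.08, limma adjusted p = 0.0578). Without replicate 2, the pair in which it was 0.08 higher, its difference was -0.36 and it was called (limma adjusted p = 0.00935, within 0.00561 to 1.00 over the other settings). Pcdha11 read 0.73, 1.04, 1.19 and 0.55 on Nr4a1 arrays, against 1.08, 1.28, 1.05 and 0.85 on GFP arrays (-0.19 ± 0.08, limma adjusted p = 0.128). It was called without replicate 3 (-0.30, limma adjusted p = 0.0155, within 0.0155 to 1.00 over the other settings). Batch 2 stood low in both groups: Nr4a1 replicate 4 was the lowest Nr4a1 array for 5 of the 7 alpha probes, and GFP replicate 4 the lowest GFP array for 6 of them. In batch 1 alone 4 alpha probes fell, and in batch 2, a single pair, all 7 were lower.

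Beta cluster genes showed small differences in both directions. Of 21 beta probes tested, 1 rose, 2 fell and 18 were not called, beside 12.1% higher and 11.7% lower over all probes tested, which is too near for the counts to set the beta genes apart. The median beta difference was 0.03 and the values ran from -0.24 to 0.24. Pcdhb22, the last gene of the beta array, read 0.66, 0.38, 0.47 and 0.41 on Nr4a1 arrays, against 0.25, 0.18, 0.29 and 0.22 on GFP arrays. It was 1.18-fold higher without overlap, as were 3089 of the 25783 probes tested (0.24 ± 0.06, limma adjusted p = 0.0199). The Pcdhb22 call was lost without replicate 1 (0.19, limma adjusted p = 0.0839) and without replicate 2 (0.26, limma adjusted p = 0.0543), within 0.0134 to 1.00 over the other settings.

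**Figure D2:**
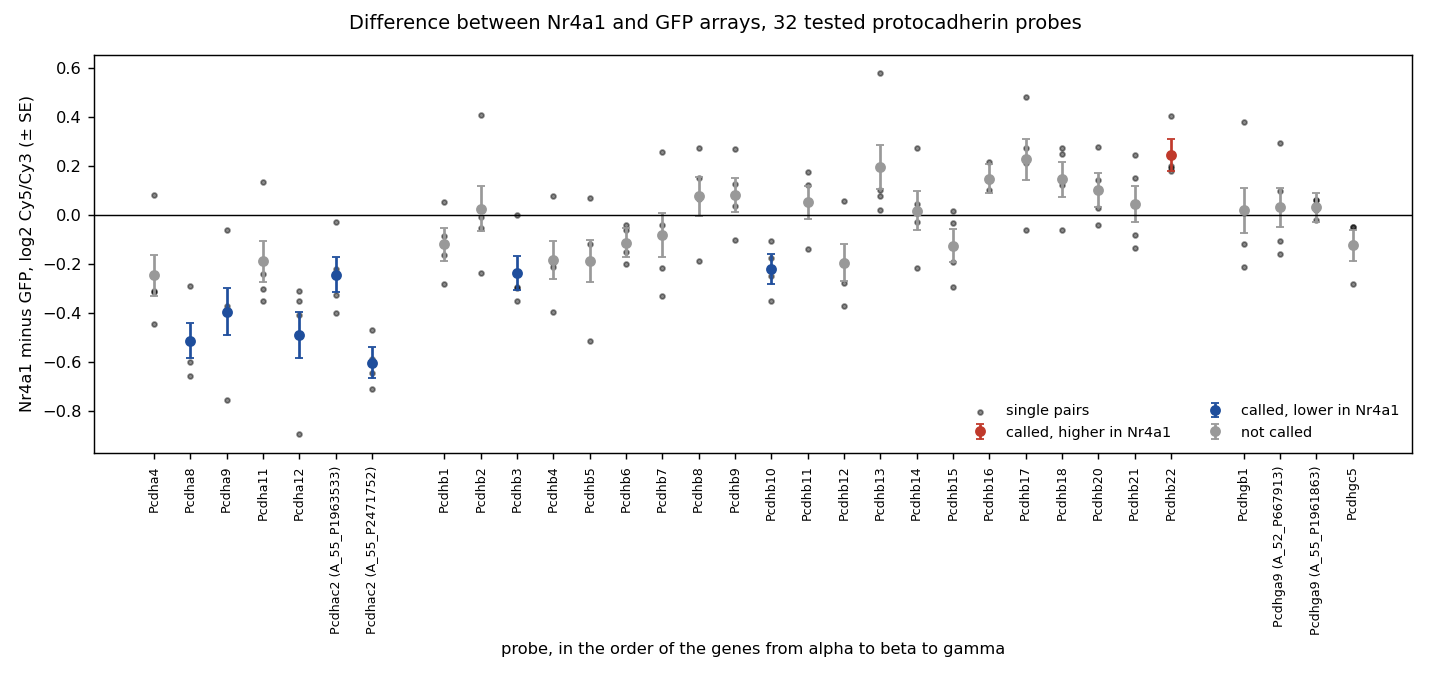
Nr4a1 minus GFP difference in log2 ratio (y axis) for the 32 tested probes, in gene order from alpha to beta to gamma (x axis). Large points are limma estimates with SE bars, blue for called lower, red for called higher and grey for not called, and small points are the 4 single pairs. All 7 alpha estimates lie below 0, from -0.60 to -0.19, while beta estimates lie on both sides and gamma estimates near 0.

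Pcdhb3 and Pcdhb10 were the beta genes that fell. Pcdhb3, measured by 10 spots of 1 probe on each array, read 1.94, 1.87, 1.88 and 1.79 on Nr4a1 arrays, against 2.24, 2.22, 2.18 and 1.79 on GFP arrays. GFP replicate 4 stood apart from the other GFP arrays, and in that pair the groups did not separate (-0.24 ± 0.07 over all pairs, limma adjusted p = 0.0358). The spots of the Pcdhb3 probe had an SD of 0.17 to 0.24 within an array. Pcdhb10 read 2.41, 2.29, 2.18 and 2.06 on Nr4a1 arrays, against 2.58, 2.40, 2.43 and 2.41 on GFP arrays, lower in 4 of 4 pairs (-0.22 ± 0.06, limma adjusted p = 0.0295). Both calls were lost with an offset of 16 in the background correction, with median centring and without the pair block. Pcdhb3 was also not called without replicate 1, 2 or 3, nor Pcdhb10 without replicate 1, 3 or 4. Leaving out a replicate also gained calls: Pcdhb12 was lower without replicate 4 (limma adjusted p = 0.0299), Pcdhb4 lower without replicate 2 (-0.27, limma adjusted p = 0.0437) and Pcdhb17 higher without replicate 3 (0.32, limma adjusted p = 0.0182). With median centring the beta calls were 2 higher, Pcdhb17 and Pcdhb22, and 0 lower.

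Among the beta genes not called, Pcdhb17 was nearest to the threshold, at 0.23 ± 0.08 (limma adjusted p = 0.0749). It read 1.51, 1.19, 1.21 and 1.33 on Nr4a1 arrays, against 1.03, 0.91, 1.27 and 1.12 on GFP arrays, and replicate 3 was the pair without a rise. In Cy5 alone, the culture RNA, Pcdhb17 had 0.06 without a call. In Cy3 alone, the reference RNA, it had -0.15 with a call. Pcdhb13 and Pcdhb16 were higher in 4 of 4 pairs without a call (0.20 ± 0.09 and 0.15 ± 0.06), and Pcdhb6 was lower in 4 of 4 pairs without a call (-0.11 ± 0.06). Pcdhb2, Pcdhb7, Pcdhb8, Pcdhb9, Pcdhb11, Pcdhb14, Pcdhb20 and Pcdhb21 had differences between -0.08 and 0.10. Pcdhb1, Pcdhb4, Pcdhb5, Pcdhb12 and Pcdhb15 had differences between -0.19 and -0.12, and Pcdhb18 had 0.14. In Cy5 alone Pcdhb13 had 0.11, Pcdhb16 -0.0030 and Pcdhb18 -0.04, without a call. Pcdhb19 was well above background on 0 of 4 Nr4a1 and 1 of 4 GFP arrays and was not tested.

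No gamma probe was called. Of the 4 tested, 0 passed limma's adjusted threshold and 0 had an unadjusted p under 0.05, with a median difference of 0.02. Over all probes tested 23.8% were called in either direction, and 9335 of 25783 had an unadjusted limma p under 0.05. Beside these shares 4 probes are too few to set the gamma cluster apart. The Pcdhga9 probe A_55_P1961863, with raw Cy5 intensities of 24486 to 44011, read 1.89, 1.94, 1.86 and 1.68 on Nr4a1 arrays, against 1.87, 1.88, 1.88 and 1.62 on GFP arrays. Replicate 4 was the lowest in both groups, and the difference of 0.03 ± 0.06 was within the spread between arrays (limma adjusted p = 0.749). The other Pcdhga9 probe, A_52_P667913, also had 0.03 (± 0.08, limma adjusted p = 0.821). Pcdhgb1 had 0.02 ± 0.09 and was well above background on 1 of 4 Nr4a1 and 3 of 4 GFP arrays. Pcdhgc5, a C-type isoform, read -0.17, -0.05, -0.14 and -0.09 on Nr4a1 arrays, against 0.11, -0.0021, -0.02 and -0.04 on GFP arrays. Its Nr4a1 arrays lay below its GFP arrays without overlap, as for 11.8% of all probes tested. The difference of -0.12 ± 0.06 did not pass (limma adjusted p = 0.191), and raw Cy5 intensities of Pcdhgc5 were 87.5 to 118. Pcdhga1, Pcdhga5 and Pcdhga10 were well above background on 0 of 8 arrays and were not tested.

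Against the reference RNA, a blend made for array work, most members stood higher in the cultures. Mean log2 ratios were above 0 for 28 of 32 tested probes in Nr4a1 arrays and for 29 of 32 in GFP arrays, including all 7 alpha probes in both. The share over all probes tested was not worked out, so these counts do not set the members apart. Some counted probes lay close to 0, such as Pcdhgc5 at 0.01 and Pcdhgb1 at 0.23 in GFP arrays. Pcdhb15 was below the reference in both groups, at -0.73 ± 0.12 in Nr4a1 arrays and -0.60 ± 0.10 in GFP arrays (SD), as were Pcdhb16 and Pcdhb21. Ratios of this kind are open to dye bias without a dye swap. Replicate SDs of the tested probes ran from 0.037 to 0.371 in Nr4a1 arrays and from 0.036 to 0.247 in GFP arrays.

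The Cy3 channel held the same reference RNA on every array, so its values hold no culture RNA. In Cy3 alone 12.3% of all probes were called between the groups. For the 32 protocadherin probes 0 were called higher and 3 lower in Cy3, namely Pcdhb9 (-0.20), Pcdhb17 (-0.15) and Pcdhb18 (-0.16). The 7 alpha probes had 0 calls in Cy3, 0 at an unadjusted limma p under 0.05 and a median Cy3 difference of 0.05. Over all probes tested, 8492 of 25783 had an unadjusted p under 0.05 in Cy3. Beside these shares 7 probes are too few to set the alpha cluster apart in that channel. Taken from Cy5 alone, 5 of 7 alpha probes fell with a median of -0.33, the Pcdhac2 probe A_55_P2471752 by 0.62 and Pcdha8 by 0.51. Over all probes tested, 3728 of 25783 were called lower and 3708 higher in Cy5 alone. Pcdha9 and Pcdha12, called in the ratio, had Cy3 differences of 0.24 and 0.22 beside Cy5 differences of -0.19 and -0.33, and Pcdha9 was not called in Cy5 (limma adjusted p = 0.0768, within 0.00451 to 1.00 over the other settings). Pcdha4 and Pcdha11 passed in Cy5 alone (-0.44 and -0.27).

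**Figure D3:**
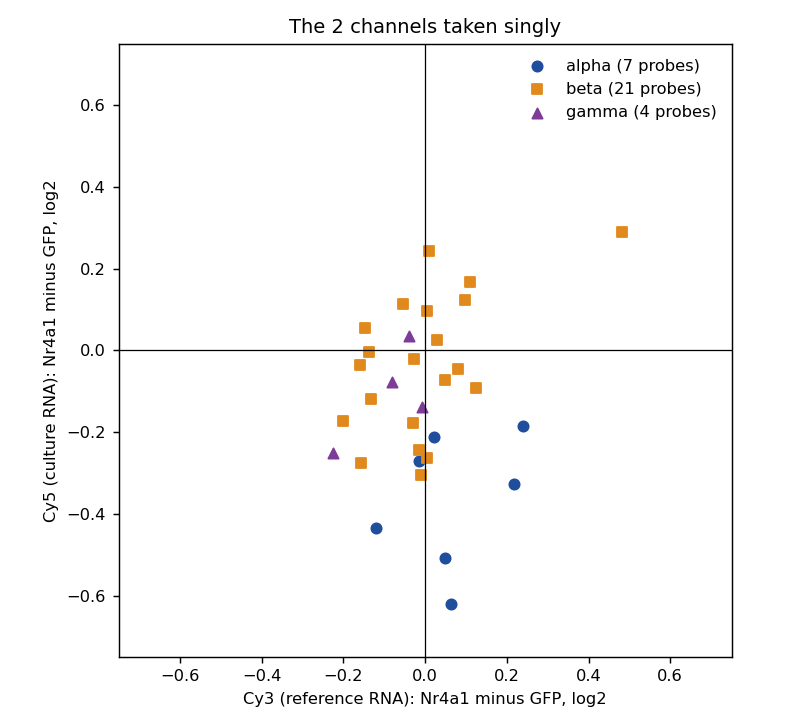
Nr4a1 minus GFP difference (log2) in the Cy5 channel, culture RNA (y axis), against that in the Cy3 channel, reference RNA (x axis), for the 32 tested probes by cluster. The 7 alpha points (blue circles) all lie below 0 on the y axis, between -0.62 and -0.19, and on both sides of 0 on the x axis.

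All 8 calls among the members were lost when the fit also took slide as a random block (limma adjusted p 1.00 for each, estimated correlation within slides 0.86). In that fit 9 probes of the array were higher and 5 lower. The alpha median was -0.39 there, close to its value without the slide. Since each slide held 1 group, a slide difference and a transgene difference in the culture RNA cannot be told apart.

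**Figure D4:**
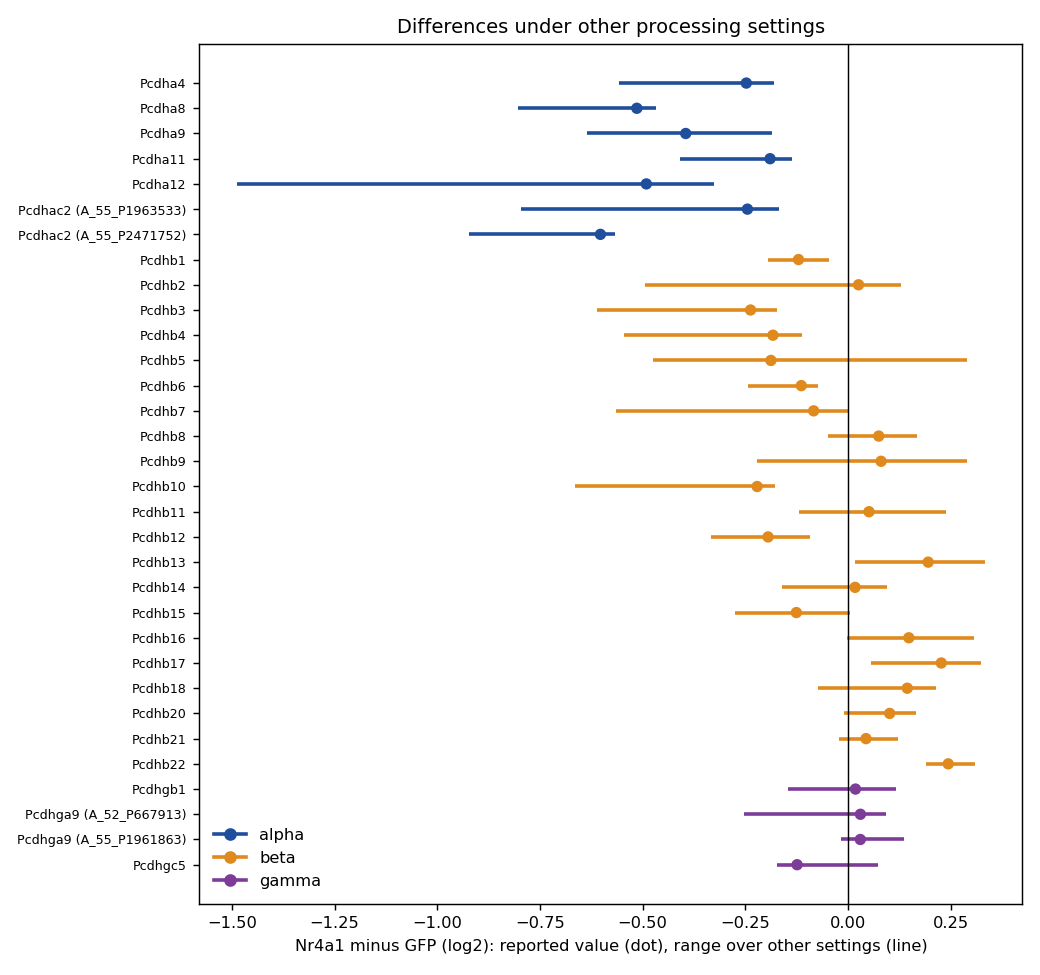
Nr4a1 minus GFP difference in log2 ratio (x axis) for the 32 tested probes, ordered from alpha (top) to gamma (bottom). Dots are the reported values and lines the range over the other processing settings. The 7 alpha ranges lie wholly below 0, while many beta and gamma ranges reach both sides, such as that of Pcdhb2.

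Genes that hold, open or silence the clusters were measured from a list of 25, of which 24 were tested: 6 rose, 1 fell and 17 were not called, beside 12.1% higher and 11.7% lower over all probes tested. The median difference of the list was 0.11, beside -0.0050 over all probes. Stag1, a cohesin subunit gene, rose by 0.37 ± 0.06 (limma adjusted p = 0.00229), to -0.47 ± 0.10 in Nr4a1 arrays, against -0.84 ± 0.04 in GFP arrays (SD). Pds5b, a cohesin regulator gene, rose by 0.30 ± 0.07, and Cbx5, which encodes the heterochromatin protein HP1 alpha, fell by 0.31 ± 0.06. The other 4 that rose, named after their values were seen, were the cohesin genes Rad21 (0.26 ± 0.07) and Stag2 (0.21 ± 0.07), Rest (0.29 ± 0.08), which encodes a repressor of neuronal genes, and Zfp143 (0.21 ± 0.06). The other cohesin genes of the list were not called, with differences of 0.16 for Smc1a, 0.13 for Smc3, 0.12 for Nipbl, 0.04 for Pds5a and -0.13 for Wapl. Ctcf, also chosen afterwards, had 0.18 ± 0.06 without a call (limma adjusted p = 0.0695). Without replicate 2 the Pds5b, Rad21 and Stag2 calls were lost. Rad21 was not called without replicate 1 or 4 either, nor Stag2 without replicate 1 or 3, Rest without replicate 1 or 3, and Zfp143 without replicate 1, 2 or 4.

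Partners that bind protocadherins or carry their signals were tested for 31 of 32 listed genes, of which 6 rose, 7 fell and 18 were not called (median -0.03), again beside 12.1% higher and 11.7% lower over all probes tested. Ret, a receptor kinase gene whose product can pair with clustered protocadherins, rose by 0.92 ± 0.09 (limma adjusted p = 7.23e-05), to 2.93 ± 0.20 in Nr4a1 arrays, against 2.01 ± 0.20 in GFP arrays (SD). The protein kinase C gene Prkcb rose by 0.54 ± 0.08, and Marcks, a kinase C substrate gene chosen after its values were seen, by 0.43 ± 0.07. Abi1, a subunit gene of the WAVE complex that drives actin branching, fell by 0.36 ± 0.06. Of the other WAVE complex genes in the list, named after their values were seen, Nckap1 fell by 0.23 ± 0.07 and Cyfip1 rose by 0.38 ± 0.07, while Cyfip2 had 0.32 ± 0.11 without a call. The remaining WAVE genes Wasf1, Wasf2, Wasf3, Abi2 and Brk1 were not called, with differences of -0.05, 0.03, 0.09, -0.06 and -0.06. The Nckap1 call was lost without replicate 1, 2 or 3. Ret and Cyfip1 were not called when Agilent's ratio was used.

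Other genes of homophilic adhesion and self-avoidance were tested for 22 of 24 listed, of which 4 rose, 0 fell and 18 were not called (median 0.05), near the 12.1% higher over all probes tested and beside 11.7% lower. The non-clustered protocadherin genes Pcdh7 and Pcdh19 rose by 0.52 ± 0.10 and 0.21 ± 0.06, the large cadherin gene Dchs1 by 0.22 ± 0.06 and Megf10, which spaces retinal interneurons in mice, by 0.29 ± 0.08. Pcdh19 was chosen after its values were seen. Its GFP replicate 4 and that of Pcdh7 stood below the other GFP arrays. In Cy5 alone Pcdh7 had 0.18, Dchs1 0.07 and Pcdh19 0.08, and none of these was called there. The Megf10 call was lost without replicate 1 or 4, and the Dchs1 and Pcdh19 calls without replicate 1, 2 or 4. Every call named for these 3 lists was lost with slide as a random block and also with all spots in the background correction.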

How the data were processed

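RNA of cultured hippocampal neurons in 8 samples, 4 labelled Nr4a1 and 4 GFP, was hybridised to Agilent 2-colour arrays. Scanning and feature extraction had been done by the authors, and per the file headers (Feature Extraction 11.0.1.1) each spot holds median and background intensity in both channels and Agilent's log10 ratio. The authors' deposited value table holds log2 ratios and served as an alternative. Its columns correlated with the ratios recomputed here at 0.998 to 1.00 and had medians of 0.0240 to 0.0312. How the authors centred them is unknown here.

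Median intensities were background-corrected with limma 3.58.1 in R 4.3.3 (normexp, offset 50, spots with non-uniform local background left out), then loess-normalised (span 0.3). Control spots had weight 0, and outlier spots were left out. Probes were tested if well above Cy5 background on at least 4 of 8 arrays with at least 3 values in each group, which left 25783. The linear model had transgene and the labels' pair tag as a block, and Benjamini-Hochberg adjustment at 0.05 ran over all tested probes. Same-pair correlations of array deviations were -0.12, 0.28, -0.02 and 0.43, so the block rests on the labels. The fit was tested on simulated data. Genes were named through RefSeq accessions (26581 probes with a symbol, 12848 without), and every protocadherin probe is accounted for. In the partner lists, the genes named were the 3 with the smallest p-value in each, with others marked as chosen afterwards. Members and lists were chosen with earlier results of these data known.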

Additional observations from a re-analysis of the deposited data

Results flagged for a closer look

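In 7 of 102 probes-by-group sets of 4 arrays, a single array stood far from the other 3 (Dixon's criterion on the gap over the range). Chance gives this in about 1 of 20 sets, and 4 of the 7 fell on GFP replicate 4, the batch 2 control. On GFP replicate 4, Pcdhb3 read 1.79 (other GFP arrays 2.18 to 2.24), and the Pcdhga9 probe A_55_P1961863 read 1.62 (others 1.87 to 1.88). On the same array Pcdh7 read 1.86 (others 2.64 to 2.70) and Pcdh19 read 0.62 (others 1.00 to 1.05). Pcdhb4 read 1.52 on Nr4a1 replicate 4 (other Nr4a1 arrays 1.81 to 1.86). Pcdhb15 read -0.91 on Nr4a1 replicate 1 (others -0.68 to -0.65), and Pcdhb10 read 2.58 on GFP replicate 1 (others 2.40 to 2.43). Among the alpha probes no array stood apart in this way.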

How the results depend on the processing

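Alpha differences stayed below 0 in every setting that altered their values, but the calls did not all hold. Alpha probes called lower numbered 5, against 0 with all spots in the background correction, 1 in Agilent's ratio, 0 with slide as a random block and 3 with no replicate block. The alpha median of -0.40 was -0.80 with all spots, -0.56 in Agilent's ratio and -0.25 with no filter on dim probes. Beta probes called higher, 1, became 0 with all spots, in Agilent's ratio and with slide, and 2 with median centring, and ran from 0 to 2 when a replicate was left out. Beta probes called lower, 2, became 0 in those 4 settings, with offset 16 and with no replicate block, and ran from 0 to 2 with a replicate left out. The beta median of 0.03 was -0.07 with all spots, -0.07 in Agilent's ratio and -0.04 in Cy5 alone. In Cy5 alone 1 of 4 gamma probes was lower, beside 3728 of 25783 over all probes. The gamma median of 0.02 was -0.11 there and -0.070 with all spots. Over all probes, 3130 were higher and 3006 lower. These counts were 128 and 100 with all spots, 1664 and 1601 in Agilent's ratio, 3945 and 1570 with median centring and 9 and 5 with slide, and with a replicate left out 2055 to 2896 and 1994 to 2435. Median centring moved the share of calls that were higher from 51.0% to 71.5%. For member probes, which had complete pairs, the replicate block, the batch block and no block give the same differences. These settings therefore could not change the alpha direction. With the batch as the block 8 of 8 member calls held, against 4 of 8 with no replicate block. Differences changed sign with all spots for Pcdhb20 (-0.0086), Pcdhga9 A_55_P1961863 (-0.018), Pcdhb2 (-0.024), Pcdhb11 (-0.030), Pcdhgb1 (-0.031), Pcdhb8 (-0.049), Pcdhb18 (-0.074), Pcdhb14 (-0.16), Pcdhga9 A_52_P667913 (-0.17), Dchs1 (-0.20), Pcdhb9 (-0.22) and Pcdhb15 (0.0058). In Cy5 alone they did so for Pcdhb16 (-0.0030), Pcdhb2 (-0.022), Pcdhb18 (-0.037), Pcdhgb1 (-0.078), Pcdhb11 (-0.12), Pcdhb9 (-0.17), Pcdhga9 A_52_P667913 (-0.25) and Pcdhb5 (0.29). In Agilent's ratio they did so for Pcdhb8 (-0.016), Pcdhb14 (-0.065), Pcdhgb1 (-0.14), Pcdhb2 (-0.49) and Pcdhgc5 (0.073). Others were Pcdhb2 with median centring (-0.017) and Pcdhga9 A_52_P667913 with slide (-0.022). With a replicate left out, Pcdhga9 A_52_P667913 ran from -0.057 to 0.094, Pcdhb21 from -0.022 to 0.10, Pcdhb14 from -0.068 to 0.096, Pcdhb2 from -0.10 to 0.11 and Pcdhgb1 from -0.10 to 0.095. The cause was not tested. Signal near background limits Pcdhb2 and Pcdhgb1, well above background on 1 of 4 Nr4a1 and 3 of 4 GFP arrays.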

Other observations

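Along the beta array, differences ordered with the place of the gene, a pattern noticed after the values were seen and given here as a description. From Pcdhb1 to Pcdhb7, 6 of 7 tested genes had a difference below 0 (median -0.12), beside 51.4% of all probes tested. From Pcdhb8 to Pcdhb12, 2 of 5 were below 0 (median 0.05), and from Pcdhb13 to Pcdhb22, 8 of 9 were above 0 (median 0.14). Spearman's rho between difference and gene order was 0.63 over the 21 tested genes, and 0.61, 0.56, 0.32 and 0.37 in the pairs of replicates 1 to 4. All 21 points share the same 8 arrays. In Cy5 alone rho was 0.40, with stretch medians of -0.07, -0.12 and 0.06, and in Cy3 alone, the reference RNA, it was -0.21. The stretches were less distinct in Cy5 alone, where 6 of 7, 4 of 5 and 3 of 9 genes were below 0. Of the 21 differences in the ratio 3 passed the test one by one.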
